A study of Mus musculus with 33 samples.

Results

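The Toll-like receptors Tlr1 to Tlr9 and the adaptor Myd88 were chosen by probe name, and all 10 were found among the 750 endogenous probes of the panel. Their RNA was counted with NanoString nCounter, which counts barcoded probes bound to RNA without amplification, in total bone marrow RNA of 33 female C57BL/6 mice aged 6 to 8 weeks. Mice received the BCL2 inhibitor venetoclax by oral gavage 1 time daily, the JAK1/2 inhibitor ruxolitinib by oral gavage 2 times daily, or the vehicle of either drug, for 2 days, and marrow was taken 1, 3 or 7 days after treatment. The venetoclax vehicle was phosal, polyethylene glycol and ethanol, and the ruxolitinib vehicle was DMSO, polyethylene glycol and water. Each drug group held 3 mice, each vehicle group 2 and the untreated group 3, making 13 groups. All mice were wild type. The doses are given in different units in the sources used here and are not printed. The question was how each short treatment left the receptors of innate sensing in marrow, compared with its own vehicle.

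Toll-like receptors recognise conserved parts of microbes and some molecules of damaged cells. Tlr1 and Tlr6 each pair with Tlr2 on the cell surface to recognise lipopeptides, Tlr4 recognises lipopolysaccharide and Tlr5 flagellin, while Tlr3, Tlr7, Tlr8 and Tlr9 sense nucleic acids in endosomes. Most of them signal through Myd88, which brings in IRAK kinases and Traf6 and so reaches NF-kB and, for the endosomal receptors, interferon regulatory factors, while Tlr3 uses another adaptor, Ticam1. In marrow, neutrophils, monocytes and B cells are known to carry several of these receptors, and plasmacytoid dendritic cells are known for Tlr7 and Tlr9.

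The members were measured at low counts. Endogenous totals ran from 18056 to 466096 per mouse (median 158944), and the background of a mouse, set at 2 SD above the mean of 8 negative controls, from 1.83 to 7.85 counts. The median raw count of a member was 2 (Tlr3) to 38 (Tlr8). A raw count of 8, the median of Tlr6, has an exact Poisson 95% interval of 3.45 to 15.8, and one of 38 an interval of 26.9 to 52.2, covering counting error only. Levels below are housekeeping-normalised counts, and fold changes are on the log2 scale with their standard errors (SE). The fit weighs deeper mice more, so a fitted fold change can differ from the ratio of the printed means, and of the 54 member values in the day comparisons 10 were opposite in sign to their means. The 2 mice with under 30000 counts were venetoclax mouse 1 of day 1 and ruxolitinib mouse 1 of day 3. All mice of a day were counted in 1 of 3 runs of 11, each with 1 untreated mouse, so a difference between days cannot be told apart from one between runs. Neutrophils are abundant in marrow, and the summed level of 9 neutrophil markers lay between 49720 and 121428 in every mouse.

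Across the 9 members tested (Tlr3 was above background in 1 of 33 mice and could not be), 1 comparison gave a call. Tlr1, the lipopeptide receptor that pairs with Tlr2, fell after venetoclax over the 3 days together. In that comparison edgeR's quasi-likelihood test called 1 member lower at an adjusted p under 0.05, against 2.9% of all 655 genes tested. Without adjustment 2 members, Tlr1 and Tlr7, had a p under 0.05, against 9.16% of all genes. After ruxolitinib over the 3 days no member was called, against 1.22% of all genes, and 0 members against 8.85% of all genes had an unadjusted p under 0.05.

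On single days no member was called in any of the 6 comparisons of drug and vehicle, by edgeR, DESeq2 or limma. Of all genes, edgeR called 0.153%, 0% and 0.153% after venetoclax on days 1, 3 and 7, and 2.75%, 0.153% and 0.153% after ruxolitinib. Members with an unadjusted p under 0.05 numbered 0, 1 and 1 after venetoclax, beside 10.4%, 10.7% and 4.73% of all genes. They numbered 2, 1 and 0 after ruxolitinib, beside 13.6%, 4.73% and 3.51%. These members were Tlr1 in 4 of the comparisons and Tlr6 in 1.

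Counting members whose drug and vehicle mice did not overlap gave 3 of 9 after venetoclax on day 1, 4 on day 3 and 1 on day 7. The same held for 27.5%, 26.1% and 17.3% of all genes. After ruxolitinib the members numbered 6 on day 1, 2 on day 3 and 0 on day 7, beside 44%, 15.6% and 17.7% of all genes. With 3 mice against 2, such separation was common on the panel. On day 1 after ruxolitinib 5 of the 6 were higher (Tlr1, Tlr4, Tlr6, Tlr8 and Myd88) and Tlr9 was lower. Of all 655 genes, 181 were higher and 107 lower without overlap there. The median log2 fold change of the members there was 0.32, beside 0.13 over all genes.

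**Figure D1:**
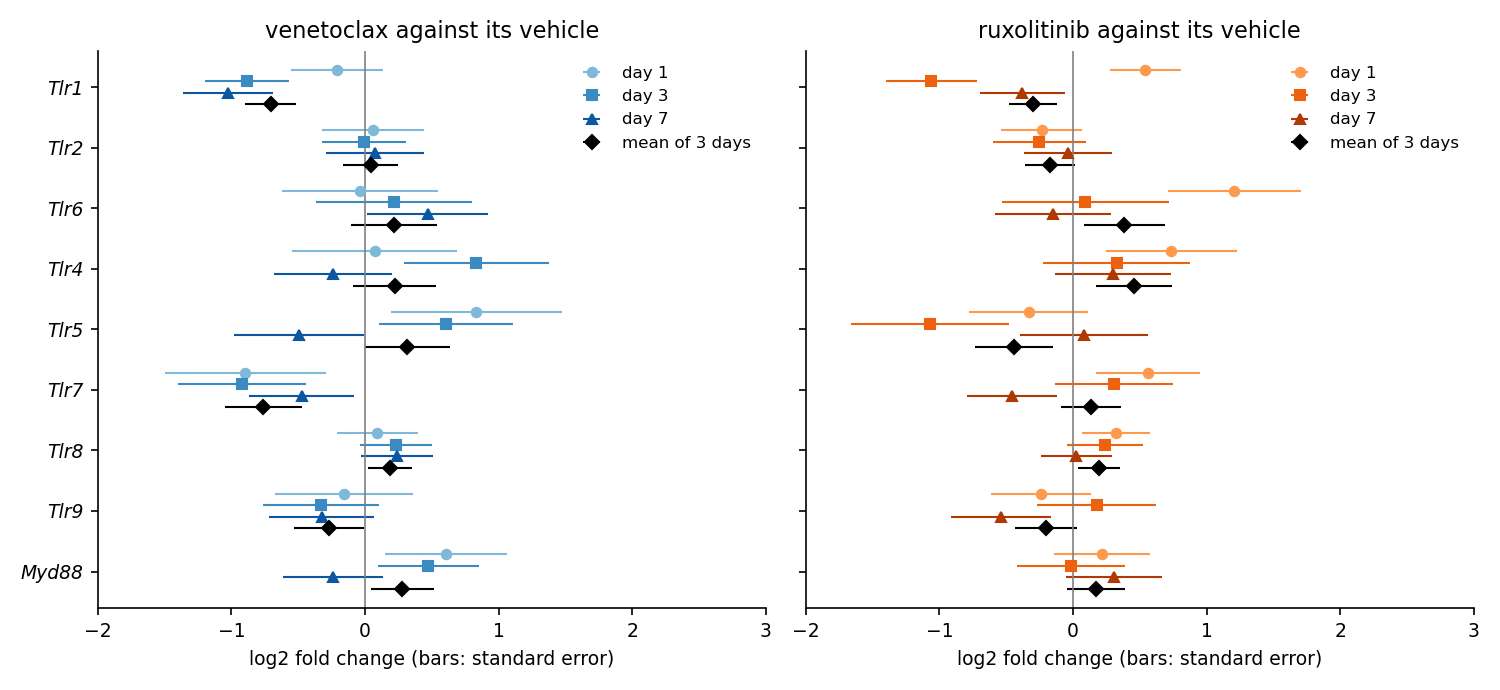
Log2 fold change of each tested member in drug-treated against vehicle-treated mice, with venetoclax on the left and ruxolitinib on the right; marks are days 1, 3 and 7 and the mean of the 3 days, and bars are standard errors. Tlr1 lies below zero at every mark for venetoclax, with its 3-day mean at -0.71, and runs from 0.54 on day 1 to -1.06 on day 3 for ruxolitinib.

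Tlr1 was lower after venetoclax. On day 1 its normalised counts were 5.55, 21.2 and 23.3 in the 3 treated mice and 24.8 and 21.5 in the vehicle mice, and the groups overlapped. The lowest of these, in mouse 1, rested on a raw count of 1, not above background. On day 3 they were 20.0, 9.27 and 13.7 against 32.3 and 23.1, and on day 7 12.2, 9.48 and 13.1 against 24.2 and 28.1. On both later days every treated mouse lay below both vehicle mice, with mouse 2 of day 7 (raw count 4) not above background. Neither day passed the adjusted test on its own (day 3: log2 fold change -0.88, SE 0.31, adjusted p = 0.275; day 7: log2 fold change -1.02, SE 0.34, adjusted p = 0.730).

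Over the 3 days Tlr1 averaged 14.2 ± 6.05 (SD, n = 9) in venetoclax-treated mice and 25.7 ± 3.91 (SD, n = 6) in vehicle mice, a log2 fold change of -0.71 (SE 0.19), or 1.63-fold lower, with an adjusted p of 0.0346 by edgeR. The printed means differ 1.81-fold. Of the 9 treated mice, 8 lay below the lowest vehicle mouse. Untreated mice held 22.4, 20.9 and 20.2, the first from a raw count of 7, not above background. Thus 7 of the 9 treated mice lay below all untreated mice too, while 5 of the 6 vehicle mice lay above them. The call was close to the threshold. It was lost without vehicle mouse 1 or 2 of day 1 (adjusted p = 0.114 and 0.0697), venetoclax mouse 1 or 2 of day 1 (0.0504 and 0.0685) or vehicle mouse 1 of day 3 (0.118). It was also lost without venetoclax mouse 2 or 3 of day 3 (adjusted p = 0.0655 and 0.0722), vehicle mouse 1 or 2 of day 7 (0.138 and 0.0672), or venetoclax mouse 2 or 3 of day 7 (0.0575 and 0.0627). DESeq2 gave an adjusted p of 0.128 and limma one of 0.0562, with Tlr1 lower in both. The adjusted p was 0.0537 without mice under 30000 counts, 0.101 without mice under 60000, 0.0677 with the replicate number as a block and 0.279 with limma after background subtraction.

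After ruxolitinib Tlr1 was high on day 1 and low on day 3. Its day 1 values were 35.8, 33.9 and 42.1 with ruxolitinib and 22.9 and 27.4 with vehicle, and all 3 treated mice lay above both vehicle mice and all other mice of the study. Day 3 reversed this, with 22, 13.8 and 9.92 against 29.4 and 26.8, the first of which was not above background in a shallow mouse. Again the groups did not overlap. Neither day passed (day 1: log2 fold change 0.54, SE 0.26, adjusted p = 0.365; day 3: log2 fold change -1.06, SE 0.34, adjusted p = 0.356). On day 7 the values were 10.3, 13.5 and 15.5 against 19.2 and 6.15, with overlap, and the fitted value (-0.38) was opposite in sign to the means (13.1 and 12.7). The vehicle value of 6.15 was a raw count of 3, not above background, and the other vehicle mouse lay above all 3 treated mice. The change on day 3 minus that on day 1, a test added after these values were seen, was -1.60 (SE 0.43, unadjusted p = 0.000741, adjusted p = 0.0607 by edgeR), and days were counted in different runs. That difference passed without ruxolitinib mouse 1 of day 3, at an adjusted p of 0.0489. The lowest group mean of Tlr1 was that of venetoclax on day 7 (11.6) and the highest that of ruxolitinib on day 1 (37.3). Of the 12 pairs of neighbouring groups in the order of its means, 1 did not overlap.

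**Figure D2:**
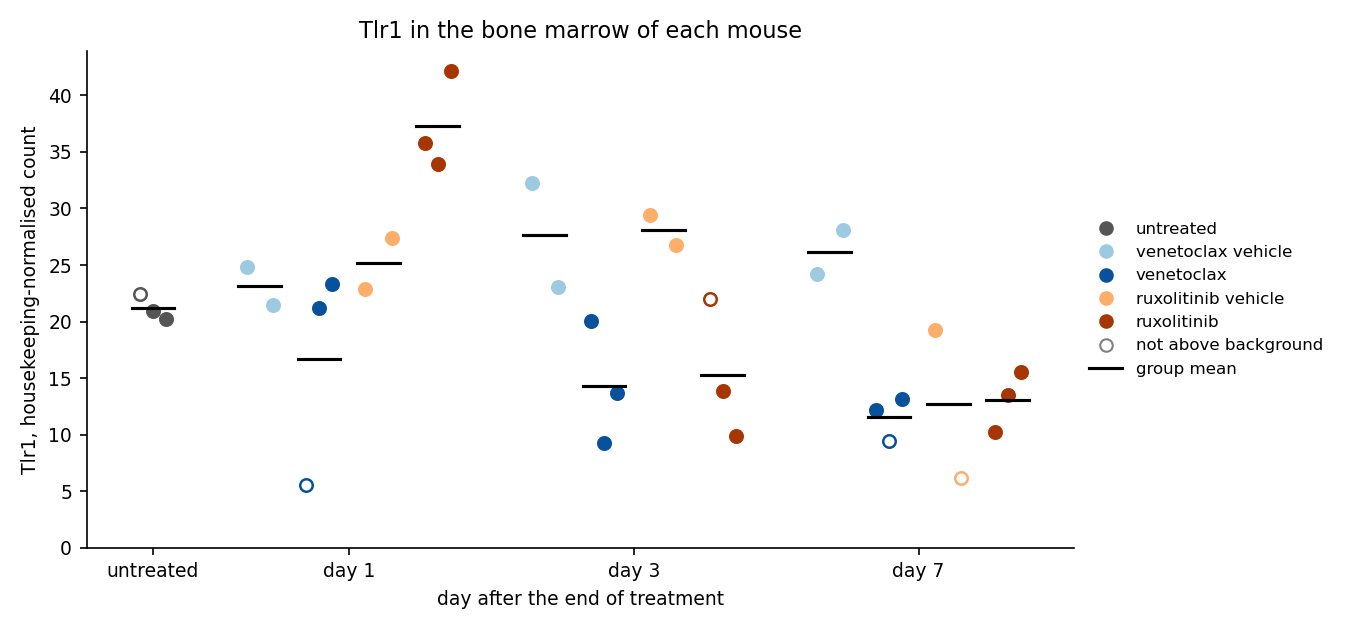
Housekeeping-normalised Tlr1 count of each of the 33 mice by group and day; open circles are counts not above background and black lines are group means. The 3 ruxolitinib-treated mice of day 1 are the highest, at 35.8, 33.9 and 42.1, and the venetoclax-treated mice of days 3 and 7 lie below their vehicle mice.

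The promoters of Tlr1 and Tlr6 are shown because Tlr1 carries the call and its neighbour on chromosome 5, Tlr6, is the other partner of Tlr2 and was, like Tlr1, higher without overlap on day 1 after ruxolitinib. Each is a RefSeq window of 300 bases around the most upstream of 2 starts listed for the gene (GRCm38.p6, minus strand, written 5′ to 3′), at chr5:64933509-64933808 for Tlr1 and chr5:64959999-64960298 for Tlr6. Capitals mark matches to 3 motifs searched on both strands, none of which overlapped another here: TTCNNNGAA, the GAS element bound by STAT factors downstream of JAK kinases, GAAANNGAA, the core of the interferon-stimulated response element, and GAGGAA, the core bound by the myeloid and B cell factor PU.1.
Tlr1: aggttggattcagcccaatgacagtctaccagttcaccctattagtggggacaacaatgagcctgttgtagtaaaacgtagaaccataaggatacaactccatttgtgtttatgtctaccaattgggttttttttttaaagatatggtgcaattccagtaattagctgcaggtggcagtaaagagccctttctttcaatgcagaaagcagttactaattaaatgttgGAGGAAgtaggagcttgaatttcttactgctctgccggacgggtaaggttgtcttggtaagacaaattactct
Tlr6: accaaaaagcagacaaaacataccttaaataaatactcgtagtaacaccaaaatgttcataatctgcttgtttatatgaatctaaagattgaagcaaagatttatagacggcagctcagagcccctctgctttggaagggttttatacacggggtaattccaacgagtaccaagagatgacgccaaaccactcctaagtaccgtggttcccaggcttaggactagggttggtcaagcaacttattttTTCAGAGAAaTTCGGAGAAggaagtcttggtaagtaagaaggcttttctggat
The Tlr1 window held 1 PU.1 core and neither of the other motifs, and the Tlr6 window held 2 GAS matches side by side. Among all RefSeq mouse promoters of this length, 8.30% held a GAS match, 8.56% an interferon response core and 28.3% a PU.1 core. Of the other members in the table, Myd88 and Tlr8 held 1 GAS match and 1 interferon response core each, Tlr8 also 1 PU.1 core and Tlr9 2, while Tlr2, Tlr3 and Tlr5 held none of the 3. Tlr4 and Tlr7 were not analysed here.

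T cell markers were lower beside Tlr1 after venetoclax. Over the 3 days all 8 T cell markers on the panel were lower (median log2 fold change -0.63, beside a median of 0.038 and 56.3% higher over all genes), and Cd3d, a chain of the T cell receptor complex (log2 fold change -0.94, adjusted p = 0.0153), and Cd8a, the CD8 chain of cytotoxic T cells (log2 fold change -1.90, adjusted p = 0.0140), passed the test, as did 2.9% of all genes. The summed T cell marker level was 37.4 to 48.4 in venetoclax-treated mice of day 3 against 81 to 106 in vehicle mice, and 42.2 to 71.1 against 84.8 to 140.4 on day 7. On day 1 it was 36.8 to 88.7 against 60.5 to 71.2, which overlapped, as Tlr1 did. The B cell receptor inhibitor Cd22 also fell, close to the threshold (log2 fold change -0.80, adjusted p = 0.0476), while 7 of 8 B cell markers were lower with a median of -0.25. In bulk marrow, fewer cells of a type and less RNA per cell cannot be told apart.

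After ruxolitinib B and T cell markers were measured beside Tlr1. On day 1 the summed B cell level was 659.5 to 742 in treated mice against 604 to 612 in vehicle mice, and the T cell sum 76.4 to 82.6 against 65.9 to 68.8. Both sums were higher without overlap, on the day Tlr1 was higher and 44% of all genes separated in either direction. A sum gives most weight to its most abundant probes. By gene, 5 of 8 B cell markers and 6 of 8 T cell markers were higher, none past the test, beside 59.1% of all genes. On day 3 all 8 B cell markers were lower (median -0.95, beside 51.8% of all genes higher), none past the test, and their sum was 304 to 402 against 588 to 625. The T cell sum then overlapped, at 50.8 to 116 against 71 to 109. On day 7 the B cell sum was 248 to 336 against 529 to 534, whereas Tlr1 overlapped with its vehicle. Over the 3 days 7 of 8 B cell markers were lower (median -0.48, beside 56.2% of all genes higher), and Pax5, a transcription factor of B cells, passed the test (log2 fold change -0.83, adjusted p = 0.0264), as did 1.22% of all genes. None of the 8 B cell or 8 T cell markers was at background in every mouse. Neutrophil markers had medians from -0.063 to 0.27 in 5 comparisons and 0.77 after venetoclax on day 3, where 6 of 9 had an unadjusted p under 0.05, beside 10.7% of all genes, and none passed. Their sum overlapped there, at 88406 to 113904 against 95835 to 109459. After ruxolitinib on day 1 the neutrophil sum was 77148 to 89610 against 95325 to 102182. It was lower without overlap, opposite to Tlr1 and to the median of the neutrophil genes (0.18). In the other comparisons by day this sum overlapped. Monocyte markers had no call, with medians from -0.10 to 0.19 in 5 comparisons and 0.51 after ruxolitinib on day 1. There 4 of 9 were higher without overlap, beside 181 of all 655 genes, while the monocyte sum overlapped, at 533 to 654 against 557 to 630. After venetoclax on day 1 the monocyte sum was 628 to 698 against 512 to 606. It was higher without overlap there, opposite to the fitted Tlr1 value (-0.21), and overlapped in the other comparisons by day. NK cell markers had no call either. Their sum was 37.7 to 38.9 against 52.2 to 62 after ruxolitinib on day 1, and 63.9 to 78.5 against 42.7 to 58 after venetoclax on day 3. After venetoclax on day 7 it was 59.96 to 94.85 against 58.99 to 59.38. These sums did not overlap, and all 3 lay opposite to Tlr1. The part of these cells in the Tlr1 values was not tested.

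**Figure D3:**
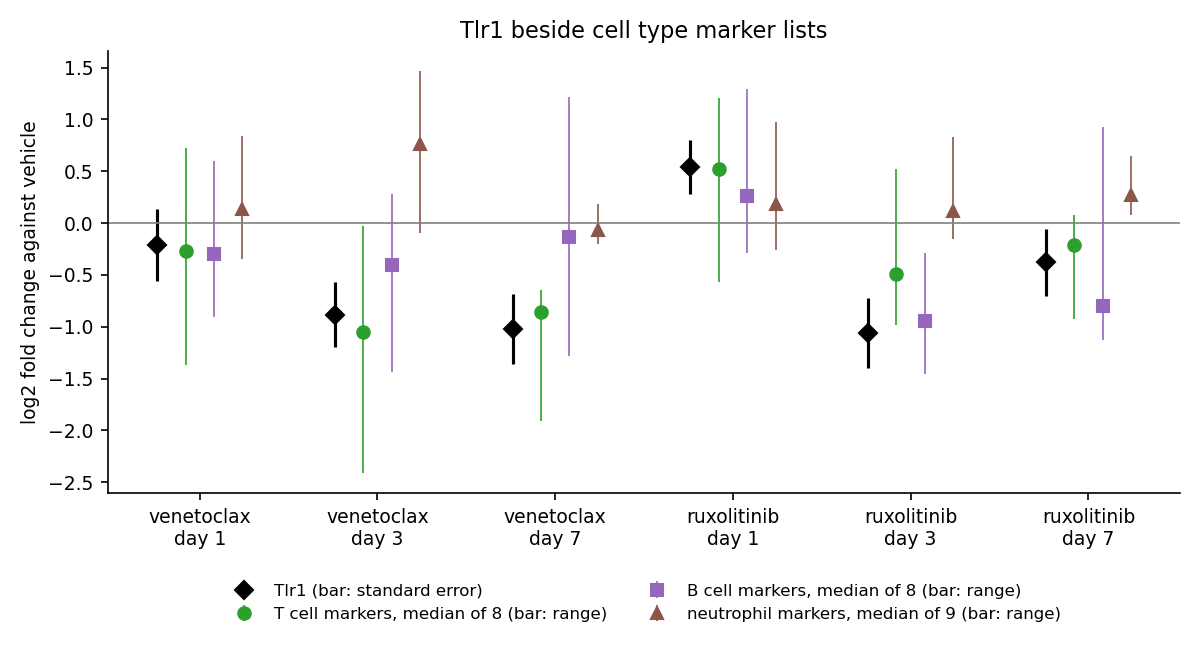
Log2 fold change against vehicle of Tlr1 (diamonds, bars are standard errors) and the median of the T cell, B cell and neutrophil marker lists (bars are the range over the genes of a list) in the 6 comparisons by day. The fitted Tlr1 value lies on the same side of zero as the T cell and B cell medians in all 6, for example -0.88 beside -1.05 and -0.40 after venetoclax on day 3, although for ruxolitinib on day 7 the Tlr1 means go the other way. After venetoclax on day 3 the neutrophil (0.77), monocyte (0.19) and NK cell (0.50) medians lay opposite to Tlr1, and the plasmacytoid dendritic cell median was -0.060. The monocyte, NK cell and plasmacytoid lists are not drawn.

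Tlr2, the shared partner of Tlr1 and Tlr6, is given here as means ± SD of 2 vehicle or 3 drug mice. On day 1, Tlr2 averaged 23.3 ± 3.66 with the venetoclax vehicle, 22.4 ± 18.6 with venetoclax, 30.4 ± 10.1 with the ruxolitinib vehicle and 24.7 ± 2.32 with ruxolitinib. On day 3, Tlr2 averaged 31.8 ± 3.97 with the venetoclax vehicle, 31.4 ± 9.31 with venetoclax, 31.3 ± 2.73 with the ruxolitinib vehicle and 31.3 ± 11.3 with ruxolitinib. On day 7, Tlr2 averaged 25.8 ± 11.1 with the venetoclax vehicle, 22.4 ± 1.05 with venetoclax, 22.5 ± 2.78 with the ruxolitinib vehicle and 24.7 ± 6.12 with ruxolitinib. In none of the 6 comparisons did the groups separate, and the fitted log2 fold changes ran from -0.25 to 0.074, with signs opposite to the means after venetoclax on days 1 and 7 and ruxolitinib on day 7. Untreated mice held 28.8, 35.9 and 43.8. Across mice, deviations of Tlr2 from its group means followed those of Tlr1 (Pearson r = 0.71 over 33 mice on the log2 scale, the highest of the 36 pairs of tested members), a description in which both genes share each mouse's scaling. Venetoclax mouse 1 of day 1 had a raw count of 1 for both, not above background, and was the lowest of its group in both. The r therefore rests in part on that mouse. No r without that mouse was computed, so the rank of this pair is not settled. Without mouse 3 the Tlr2 mean of venetoclax on day 1 was 12.4.

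Tlr6, the other Tlr2 partner, was at low counts, above background in 25 of 33 mice. On day 1 after ruxolitinib it was 7.53, 9.05 and 11.5 in treated mice and 4.58 and 3.77 in vehicle mice, from raw counts of 5 to 21. All 3 treated mice were higher (log2 fold change 1.21, SE 0.50, adjusted p = 0.290). The same mice lay within the range of the untreated mice, at 9.60, 7.47 and 27, the last from a raw count of 8. On day 3, Tlr6 averaged 5.09 ± 0.951 with the venetoclax vehicle, 5.62 ± 0.749 with venetoclax, 4.87 ± 3.43 with the ruxolitinib vehicle and 4.75 ± 3.21 with ruxolitinib. On day 7, Tlr6 averaged 7.85 ± 7.13 with the venetoclax vehicle, 13.6 ± 4.59 with venetoclax, 10.8 ± 0.741 with the ruxolitinib vehicle and 9.83 ± 1.08 with ruxolitinib. On these days both drugs overlapped with their vehicles, as venetoclax did on day 1 (10.1 ± 5.31 against 8.04 ± 2.36).

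Tlr4, the lipopolysaccharide receptor, was above background in 29 mice. On day 1, Tlr4 averaged 11.4 ± 0.821 with the venetoclax vehicle, 16.1 ± 10.1 with venetoclax, 8.80 ± 1.8 with the ruxolitinib vehicle and 14 ± 1.67 with ruxolitinib. On day 3, Tlr4 averaged 8.54 ± 0.966 with the venetoclax vehicle, 14.6 ± 5.47 with venetoclax, 11.4 ± 2.25 with the ruxolitinib vehicle and 11.8 ± 8.45 with ruxolitinib. On day 7, Tlr4 averaged 24.1 ± 6.26 with the venetoclax vehicle, 17.4 ± 11.5 with venetoclax, 16.7 ± 6.20 with the ruxolitinib vehicle and 25.8 ± 7.91 with ruxolitinib. Without 1 mouse each, the means were 10.3 for venetoclax on day 1 (mouse 1, a raw count of 5), below its vehicle, 10.8 for venetoclax on day 7 (mouse 3) and 7.36 for ruxolitinib on day 3 (mouse 2), below its vehicle. The groups separated only for ruxolitinib on day 1, at 12.6, 15.8 and 13.7 against 10.1 and 7.53, a difference that did not pass (log2 fold change 0.74). The other 5 log2 fold changes ran from -0.24 to 0.83. Untreated mice spread widely, at 6.40, 16.4 and 53.9, the highest value from a raw count of 16.

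Tlr5, the flagellin receptor, was measured at low counts, above background in 23 mice with a median raw count of 7. On day 1, Tlr5 averaged 3.61 ± 0.528 with the venetoclax vehicle, 6.25 ± 0.660 with venetoclax, 6.68 ± 1.68 with the ruxolitinib vehicle and 5.53 ± 1.41 with ruxolitinib. On day 3, Tlr5 averaged 5.01 ± 0.559 with the venetoclax vehicle, 7.58 ± 3.90 with venetoclax, 7.53 ± 1.47 with the ruxolitinib vehicle and 4.13 ± 1.22 with ruxolitinib. On day 7, Tlr5 averaged 10.1 ± 1.59 with the venetoclax vehicle, 6.45 ± 4.03 with venetoclax, 6.13 ± 0.0300 with the ruxolitinib vehicle and 9.01 ± 5.88 with ruxolitinib. Venetoclax-treated mice were all above their vehicle mice on day 1 (5.55, 6.85 and 6.36 against 3.24 and 3.98), and ruxolitinib-treated mice all below theirs on day 3 (5.50, 3.17 and 3.72 against 8.57 and 6.49). Neither passed, with log2 fold changes of 0.83 and -1.07. In each of these treated groups at least 1 mouse was not above background, so the order rests on a few counts. On day 7 the ruxolitinib mean was 5.75 without mouse 3, which had a raw count of 5. Untreated mice held 3.20, 5.98 and 16.9, the last also from a raw count of 5.

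**Figure D4:**
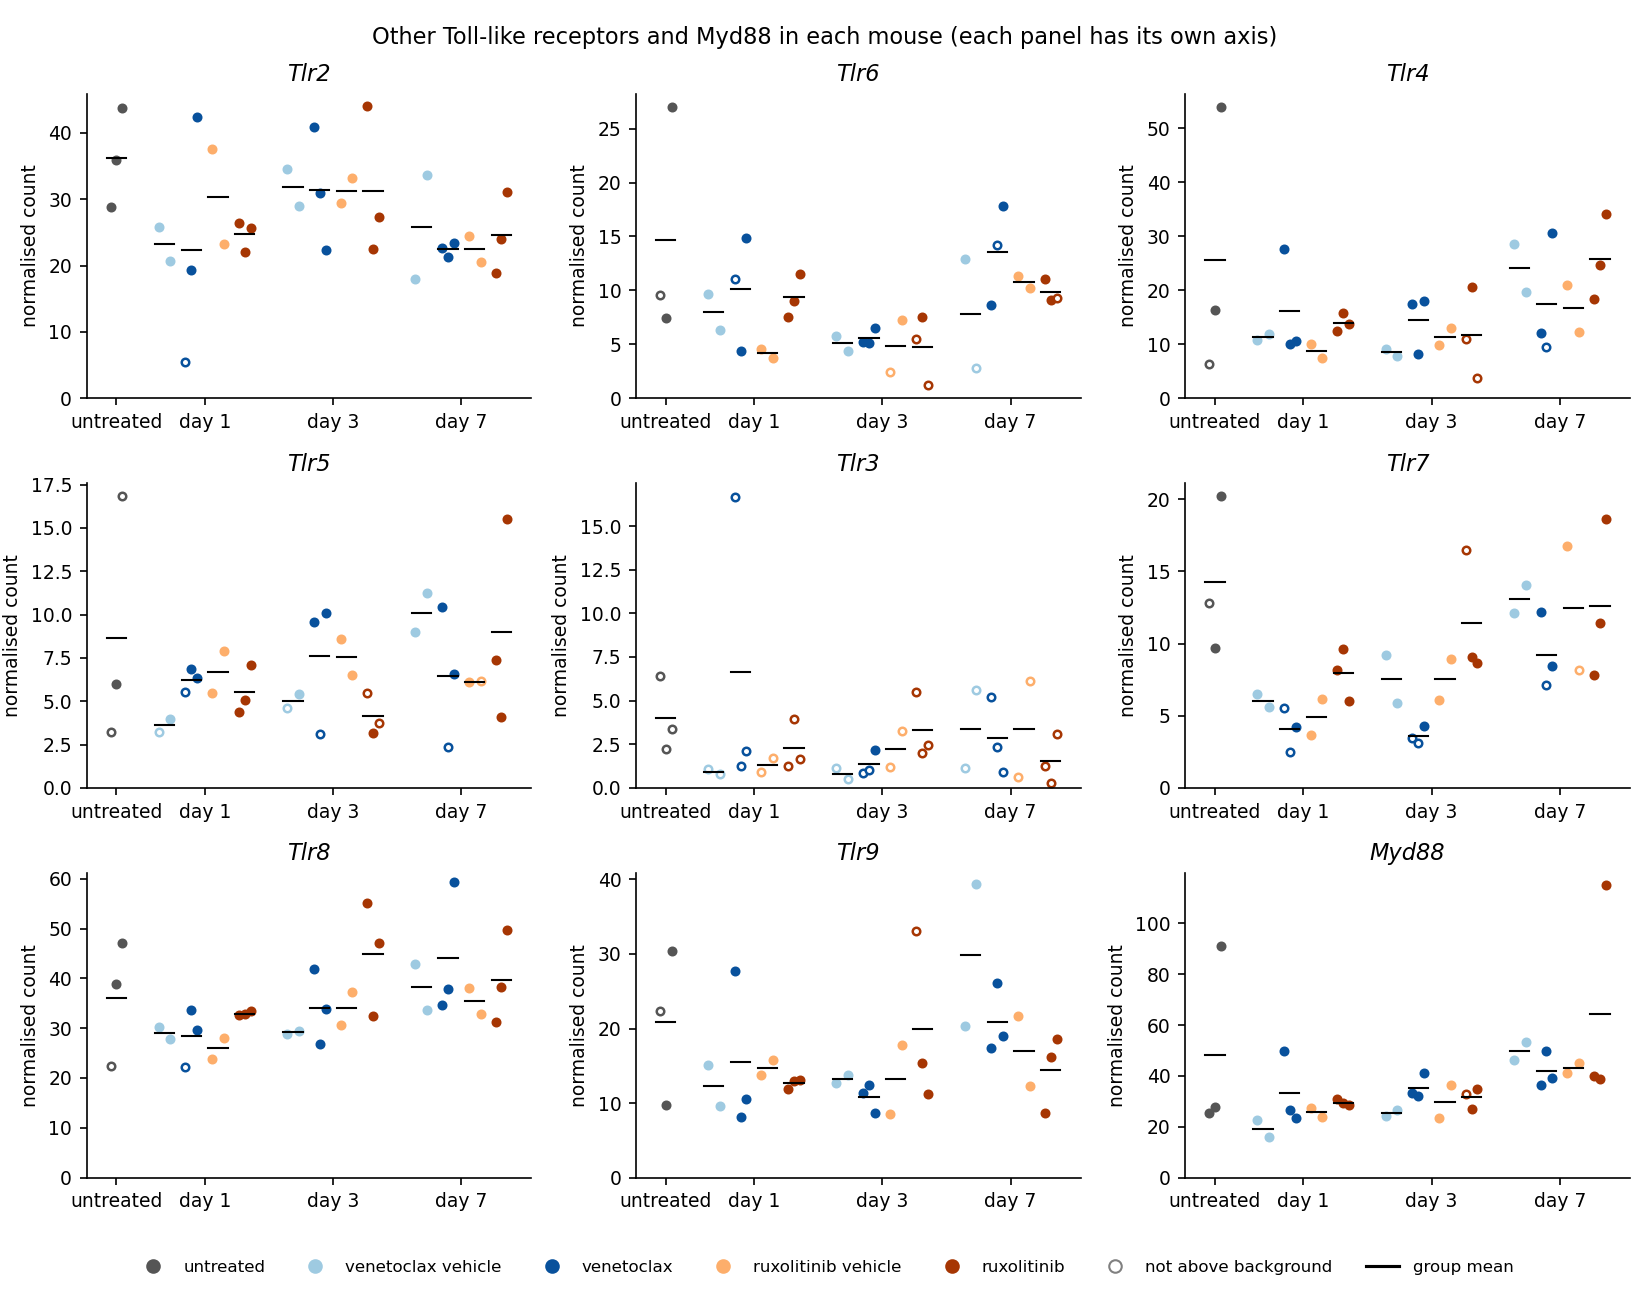
Housekeeping-normalised count of the other 8 receptors and Myd88 in each mouse, by group and day, each panel with its own axis; open circles are counts not above background and black lines are group means. Tlr3 is open in all but 1 mouse, and the highest Myd88 values, 114.9 and 91, belong to 1 ruxolitinib-treated mouse of day 7 and 1 untreated mouse.

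Among the endosomal receptors, Tlr3, the sensor of double-stranded RNA, had raw counts of 1 to 7. It was above background only in venetoclax mouse 3 of day 3, at a raw count of 3, and levels of it are not compared. Tlr7, a sensor of single-stranded RNA, had lower values after venetoclax on days 1 and 3 without overlap. The values were 5.55, 2.49 and 4.24 against 6.47 and 5.58 on day 1 and 3.48, 3.09 and 4.32 against 9.22 and 5.89 on day 3, with raw counts of 1 to 6 in the treated mice. Of these 6 treated mice 4 were not above background, and on day 1 the highest treated value, 5.55 against 5.58, rested on a raw count of 1 in shallow mouse 1. On day 7 they were 12.2, 7.11 and 8.43 against 12.1 and 14, and the groups overlapped. Over the 3 days the log2 fold change was -0.76, which did not pass.

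The summed level of 3 plasmacytoid dendritic cell markers lay beside these Tlr7 values. It was 106 to 136 after venetoclax against 174 to 175 with vehicle on day 1, 117 to 154 against 189 to 202 on day 3 and 103 to 163 against 150.4 to 154 on day 7. Over the 3 days 2 of the 3 were lower and Il3ra was at 0.075. Of the list, Bst2, an interferon-induced surface protein also used as a marker of these cells, fell over the 3 days (log2 fold change -0.51, adjusted p = 0.0321). The part of these cells in the Tlr7 values was not tested. After ruxolitinib Tlr7 averaged 7.93 ± 1.81, 11.4 ± 4.41 and 12.6 ± 5.52 on days 1, 3 and 7, against 4.91 ± 1.77, 7.52 ± 1.98 and 12.5 ± 6.08 with vehicle. These groups overlapped on every day. The marker sum was 152 to 176 against 195 to 264 on day 1 after ruxolitinib, lower without overlap and opposite to the Tlr7 means, and it overlapped on days 3 and 7. Untreated mice held 12.8, 9.71 and 20.2.

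Tlr8, the neighbour of Tlr7 on the X chromosome and also an RNA sensor family member, had a median raw count of 38 over all mice. On day 1, Tlr8 averaged 29 ± 1.65 with the venetoclax vehicle, 28.5 ± 5.82 with venetoclax, 25.9 ± 3.01 with the ruxolitinib vehicle and 32.9 ± 0.382 with ruxolitinib. On day 3, Tlr8 averaged 29.1 ± 0.453 with the venetoclax vehicle, 34.1 ± 7.51 with venetoclax, 34 ± 4.73 with the ruxolitinib vehicle and 44.9 ± 11.5 with ruxolitinib. On day 7, Tlr8 averaged 38.3 ± 6.55 with the venetoclax vehicle, 44 ± 13.4 with venetoclax, 35.5 ± 3.80 with the ruxolitinib vehicle and 39.7 ± 9.36 with ruxolitinib. Its log2 fold changes in the 6 comparisons of drug and vehicle by day lay between 0.024 and 0.32. The fitted value after venetoclax on day 1 (0.092) was opposite in sign to the means. The groups separated for ruxolitinib on day 1, at 32.6, 32.8 and 33.4 against 23.8 and 28.1, and this did not pass. Untreated mice held 22.4, 38.8 and 47.2. The lowest group mean of Tlr8 was that of the ruxolitinib vehicle on day 1 (25.9) and the highest that of ruxolitinib on day 3 (44.9). Of the 12 pairs of neighbouring groups in the order of its means, 1 did not overlap.

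Tlr9, the sensor of unmethylated CpG DNA, was above background in 31 mice. On day 1, Tlr9 averaged 12.3 ± 3.92 with the venetoclax vehicle, 15.5 ± 10.7 with venetoclax, 14.7 ± 1.42 with the ruxolitinib vehicle and 12.7 ± 0.663 with ruxolitinib. On day 3, Tlr9 averaged 13.2 ± 0.754 with the venetoclax vehicle, 10.8 ± 1.92 with venetoclax, 13.2 ± 6.55 with the ruxolitinib vehicle and 19.9 ± 11.6 with ruxolitinib. On day 7, Tlr9 averaged 29.8 ± 13.4 with the venetoclax vehicle, 20.8 ± 4.62 with venetoclax, 17 ± 6.63 with the ruxolitinib vehicle and 14.5 ± 5.22 with ruxolitinib. The venetoclax mean of day 1 rested on mouse 1 (27.7, a raw count of 5) and was 9.35 without it, below vehicle, and the fitted change (-0.16) was opposite in sign to the printed means. Treated mice lay below their vehicle mice after venetoclax on day 3 (11.3, 12.4 and 8.64 against 12.7 and 13.8) and after ruxolitinib on day 1 (11.9, 13 and 13.1 against 13.7 and 15.7), by small margins. The log2 fold changes over the 6 comparisons ran from -0.54 to 0.18, none past the test. Untreated mice held 22.4, 9.71 and 30.3.

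Myd88, the adaptor shared by all members but Tlr3, was above background in 32 mice. After venetoclax it was 49.9, 26.8 and 23.3 against 22.7 and 15.9 with vehicle on day 1, and 33.1, 31.9 and 41 against 24.2 and 26.5 on day 3. Treated mice were above vehicle mice on both days, and neither difference passed (log2 fold changes 0.61 and 0.47). On day 7 the groups overlapped, at 36.5, 49.8 and 39.3 against 46.1 and 53.4. After ruxolitinib it was 30.8, 29.4 and 28.4 against 27.5 and 24 on day 1, 33, 26.9 and 34.7 against 23.3 and 36.5 on day 3 and 39.8, 38.8 and 114.9 against 41.2 and 45.1 on day 7. The day 1 groups separated narrowly and the later ones overlapped. Vehicle mice themselves ranged from 15.9 at the lowest on day 1 to 53.4 at the highest on day 7, across runs. Untreated mice held 25.6, 27.6 and 91. The lowest group mean of Myd88 was that of the venetoclax vehicle on day 1 (19.3) and the highest that of ruxolitinib on day 7 (64.5). That mean was 39.3 without mouse 3, below the venetoclax vehicle on day 7 (49.7), and the untreated mean of 48.1 was 26.6 without its mouse 3. Of the 12 pairs of neighbouring groups in the order of its means, 2 did not overlap.

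The drugs were also set against each other, as the venetoclax change minus the ruxolitinib change on the same day. No member passed on days 1, 3 or 7, while 1.68%, 0.153% and 0.305% of all genes did. Members with an unadjusted p under 0.05 numbered 0, 1 (Tlr5) and 0, beside 13.4%, 3.05% and 3.82% of all genes. For Tlr1 the differences were -0.75, 0.18 and -0.64 (log2, SE 0.43, 0.46 and 0.47), so these data do not show that Tlr1 responded differently to the drugs, nor that it responded alike.

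Between days, no member's change differed past the test. For day 3 minus day 1, a comparison added after values were seen, edgeR called 0.305% of all genes after venetoclax and 1.07% after ruxolitinib, and for day 7 minus day 1 it called 0% and 1.53%. With an unadjusted p under 0.05 there were 0 and 1 members for day 3 (beside 11.5% and 6.87% of all genes) and 0 and 2 for day 7 (beside 5.65% and 9.62%). The members for ruxolitinib were Tlr1 on day 3, and Tlr1 and Tlr6 on day 7.

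The control groups were compared in the same model. Between the vehicles, over the 3 days, member log2 differences ran from -0.27 to 0.27 and none passed, as for 0% of all genes. At an unadjusted p under 0.05 the counts were 0 members and 2.75% of all genes. Vehicle mice were lower than untreated mice for 8 of 9 members (median -0.45, beside -0.14 over all genes, of which 69% were lower), and Tlr1 was the exception at 0.17. This direction rested in part on untreated mouse 3 and on the processing. Without that mouse 5 of 9 members were lower (median -0.076), and the untreated means of Tlr4 (11.4), Tlr5 (4.59) and Myd88 (26.6) then lay below the vehicle means of 13.5, 6.51 and 32.2, as did those of Tlr1, Tlr8 and Tlr9. With limma after background subtraction 3 of 9 were lower (median 0.16). None of the members passed as tested, nor did any gene (0%), and 0 members against 11.5% of all genes had an unadjusted p under 0.05. Over all genes, 5 were called lower when all 20 housekeeping probes set the scale and 6 higher with limma after background subtraction. Untreated mice 1 and 3, at 47977 and 37003 counts, were below the median depth.

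Other genes of the pathway were taken from 7 lists, with 63 genes on the panel and 58 tested. Over the 8 comparisons of drug and vehicle, 2 of them passed, each in 1, beside 2.9% of all genes for venetoclax over the 3 days and 2.75% for ruxolitinib on day 1. Rela, the p65 subunit of NF-kB, fell after venetoclax over the 3 days (log2 fold change -0.48, SE 0.14, adjusted p = 0.0417 by edgeR). Cxcl10, an interferon-induced chemokine, fell on day 1 after ruxolitinib without overlap (log2 fold change -1.83, SE 0.51, adjusted p = 0.0426 by edgeR). Both adjusted p values were close to the threshold. Over the 3 days after venetoclax 34 of the 58 were higher and 24 lower (median 0.064), and after ruxolitinib 28 and 30, beside 56.3% and 56.2% of all genes higher. Between days, Cd36, a lipid receptor and Toll-like co-receptor, had a higher venetoclax change on day 3 than on day 1 (log2 difference 2.71, adjusted p = 0.0321 by edgeR). Of all genes 0.305% passed there. None of the 655 genes passed without mice under 30000 counts or with limma after background subtraction, so this call was lost in both. Cxcl10 had a higher ruxolitinib change on day 3 than on day 1 (log2 difference 3.06, adjusted p = 0.0314 by edgeR), beside 1.07% of all genes. With limma after background subtraction none of the 655 genes passed, so the Cxcl10 call was lost there. Both of these day comparisons were added after values were seen.

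By role, the same 3-day means gave small medians. For venetoclax the medians of some lists had different signs on different days. Days were counted in different runs, and venetoclax on day 1 held a mouse under 30000 counts. The medians of the pathway inhibitors were -0.54, 0.30 and 0.11 on days 1, 3 and 7. Those of the co-receptor list were -0.37, 0.34 and 0.11, beside -0.019, 0.063 and -0.0069 over all genes. No gene of these lists was called on those days. Between days, Cd36 was the only gene of these lists called, with the limits given above. Of the 7 tested co-receptors, ligand carriers and trafficking factors, such as Cd14, 4 were higher and 3 lower after venetoclax (median 0.13), and 6 and 1 after ruxolitinib (0.14). Among the 3 tested other adaptors, such as Tirap and Ticam1, 3 were higher and 0 lower after venetoclax (median 0.25), and 2 and 1 after ruxolitinib (0.0022). Of the 9 tested kinases and TRAF proteins next to Myd88, such as Irak4 and Traf6, 6 were higher and 3 lower after venetoclax (median 0.058), and 5 and 4 after ruxolitinib (0.0031). These upstream lists had no call in either 3-day mean. Among the 10 tested genes of the NF-kB arm, 4 were higher and 6 lower after venetoclax (median -0.044), and 4 and 6 after ruxolitinib (-0.028). Of the 7 tested genes of the interferon regulatory factor arm, 4 were higher and 3 lower after venetoclax (median 0.0024), and 2 and 5 after ruxolitinib (-0.042). Among the 6 tested pathway inhibitors, such as Tollip and Socs1, 3 were higher and 3 lower after venetoclax (median -0.016), and 1 and 5 after ruxolitinib (-0.22). Of the 16 tested response genes, such as Tnf and Il1b, 10 were higher and 6 lower after venetoclax (median 0.17), and 8 and 8 after ruxolitinib (-0.043). In a 3-day mean, Rela was the 1 gene of the lists that passed.

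For the 4 members above background in at least 30 of 33 mice, the most similar patterns were sought among 358 genes measured as often, by Pearson's r of log2 normalised counts over the 33 mice. All points share a mouse's depth and scaling, and genes are not independent. For Tlr2 the highest were Atg16l1 (0.65), Ep300 (0.63) and Cd180 (0.62). For Tlr8 they were Il17ra (0.79), Irak1 (0.77) and Lamp1 (0.75), of which Irak1 is a kinase that binds the Myd88 complex. For Tlr9 they were Map3k7 (0.61), Emr1 (0.61) and Ms4a1 (0.58), and for Myd88 Spn (0.78), Ltf (0.78) and C1qb (0.78). With group means removed, they were Atg16l1 (0.70) and Cd180 (0.68) for Tlr2, Irak1 (0.82), Il17ra (0.79) and Ccl6 (0.77) for Tlr8, Ms4a1 (0.67), Mef2c (0.60) and Jak2 (0.57) for Tlr9 and Cd33 (0.82), Spn (0.80) and Ewsr1 (0.76) for Myd88. Cd180 is a receptor related to the Toll-like family, and Ms4a1 encodes the B cell protein CD20. Between members, deviations followed each other most for Tlr1 with Tlr2, then Tlr7 with Tlr9 (0.69) and Tlr4 with Tlr6 (0.63). The r of Tlr1 with Tlr2 rested in part on venetoclax mouse 1 of day 1, so this order is not settled. The level of a mouse's total count ran against Tlr9 (r = -0.53) and Myd88 (-0.40), so that shallow mice tended to hold the higher values, and was nearly unrelated to Tlr2, Tlr4 and Tlr8. The r was also negative for Tlr7 (-0.27), Tlr5 (-0.11) and Tlr6 (-0.091), and for Tlr3 (-0.78), which was above background in 1 mouse. For Tlr1 the sign was the other way (r = 0.29).

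The order of group means was weakly resolved for the remaining receptors. Among the surface receptors, group means ran for Tlr2 from 22.4 (venetoclax on day 1) to 36.2 (no treatment), and for Tlr6 from 4.17 (the ruxolitinib vehicle on day 1) to 14.7 (no treatment). They ran for Tlr4 from 8.54 (the venetoclax vehicle on day 3) to 25.8 (ruxolitinib on day 7), and for Tlr5 from 3.61 (the venetoclax vehicle on day 1) to 10.1 (the venetoclax vehicle on day 7). Among the endosomal receptors they ran for Tlr7 from 3.63 (venetoclax on day 3) to 14.2 (no treatment), and for Tlr9 from 10.8 (venetoclax on day 3) to 29.8 (the venetoclax vehicle on day 7). Of the 12 pairs of neighbouring groups in each order, 1 did not overlap for Tlr4 and 0 for Tlr2, Tlr5, Tlr6, Tlr7 and Tlr9. Without untreated mouse 3 the untreated mean of Tlr6 was 8.53, below venetoclax on day 7 (13.6), and that of Tlr7 was 11.3, below the venetoclax vehicle on day 7 (13.1). The lowest groups could change too. Without ruxolitinib mouse 2 of day 3 the Tlr4 mean of that group was 7.36, below the venetoclax vehicle on day 3 (8.54). Without venetoclax mouse 1 of day 1 the Tlr9 mean of that group was 9.35, below venetoclax on day 3 (10.8). Levels of different probes are not compared, since probes differ in efficiency.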

How the data were processed

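The deposited files held raw probe counts per mouse, 1 file for each of 33 mice. Per the labels, total bone marrow RNA was extracted with a column kit and counted on an nCounter panel, which the methods and the deposited design name differently. The authors normalised with nCounter Advanced Analysis software, but the deposited counts are before that step. Doses are given per ml in the deposited design and per kg in the methods. Labels name the middle time day 3 and its file headers day 2.

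The members and gene lists were chosen with earlier results of these data known. Of 20 housekeeping probes, 11 exceeded background (2 SD over the negative-probe mean) in each mouse, and their geometric mean set the scale. Totals ran from 18056 to 466096 counts per mouse. The 655 genes above background in at least 2 mice were tested with edgeR 4.0.16 (R 4.3.3, quasi-likelihood test, 1 model of 13 group means, 2-sided, Benjamini-Hochberg over all genes, threshold 0.05). Correlations used log2(normalised count + 1). The code was tested on simulated data. Alternatives were other scalings and filters, DESeq2 1.42.0, limma 3.58.1, a replicate block, pooled vehicles and leaving out mice. A member's fold change is given with its test where the adjusted p was under 0.05, or the unadjusted p was and its groups did not overlap, and other fold changes are given as values or ranges. Pathway genes are named with values where they passed between drug and vehicle, or between days. For members above background in at least 30 mice, the 3 most correlated genes are named, except 1 that is not reported here. Replicates were separate samples in the labels, taken as mice. Changes between day 3 and day 1, and the fit without mice under 60000 counts, were added after seeing the data. Promoters came from RefSeq tables (GRCm38.p6), and the probe files name no genome build.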

Additional observations from a re-analysis of the deposited data

How the results depend on the processing

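The venetoclax 3-day change of Tlr1 was lower under each of 13 alternatives and kept its call in 7, with adjusted p from 0.00831 to 0.279. It did not pass, and 0 members were called, with the replicate number as a block (log2 fold change -0.72), without mice under 30000 counts (-0.66), without mice under 60000 counts (-0.62, added after seeing the data), with DESeq2 (-0.70), limma (-0.91) and limma after background subtraction (-1.39). The cause was not tested. Leaving out 1 mouse at a time gave -0.81 to -0.64 and 0 to 1 members called, with the call kept in 4 of 15. The difference between day 3 and day 1 after ruxolitinib had 0 members called as tested, and 1, Tlr1, with total-count scaling (adjusted p = 0.0365), without mice under 30000 counts (0.0373) and without mice under 60000 (0.0333). Leaving out 1 mouse gave 0 to 1 there. No other count of called members moved under the alternatives run. The replicate block changed no other call of a member. Same-numbered mice deviated together with r from -0.35 to 0.30. In a group of 2 vehicle mice the deviations from the mean mirror each other, so these r cannot settle whether numbers mark pairs. The numbers were not taken as pairs. The number of members higher ranged over alternatives, leaving out single mice aside, from 2 to 6 after venetoclax on day 1 (5 as tested), 2 to 6 after ruxolitinib on day 3 (5) and 1 to 7 on day 7 (4, with 1 without mice under 60000 counts), and from 2 to 7 for venetoclax over 3 days (6, with 2 by limma after background subtraction), so these directions were not settled. Leaving out 1 mouse moved such a count by over 1.5 times for ruxolitinib on day 3 (3 without vehicle mouse 1), on day 7 (8 without vehicle mouse 1 and 1 without ruxolitinib mouse 3) and over the 3 days (3 without ruxolitinib mouse 2 of day 3, against 5 as tested). Over all genes, calls ranged from 8 to 26 for venetoclax over 3 days (19 as tested), 2 to 20 for ruxolitinib (8), 0 to 25 for venetoclax on day 1 (1) and 3 to 77 for ruxolitinib on day 1 (18, with 77 when only the compared groups were fitted). For venetoclax minus ruxolitinib on day 1 they ranged from 0 with limma after background subtraction to 61 when only the compared groups were fitted (11 as tested), and for vehicles minus untreated from 0 to 6 (0 as tested), where the median of all genes ran from -0.30 to 0.26. Total-count scaling shifted the median of all genes by -0.12, 0.12 and -0.13 for venetoclax day 1 and ruxolitinib days 1 and 7, by -0.19 for ruxolitinib day 3 minus day 1, by -0.25 for ruxolitinib day 7 minus day 1 and by -0.26 for venetoclax minus ruxolitinib on day 1. Tlr3, with a median raw count of 2 over all mice, was not tested, and Tlr5, Tlr6 and Tlr7 had median raw counts of 7 to 8. The calls of marker genes, and those of Rela and of Cxcl10 on day 1, were not followed through these alternatives.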
